A study of Mus musculus with 4 samples.

Results

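The enzymes described here build the branches of N-linked glycans, and 9 of their genes were taken by name from the 47729 genes in the table: Mgat1, Mgat2, Mgat3, Mgat4a, Mgat4b, Mgat5, Man2a1, Man2a2 and Fut8. The set was selected on the summed FPKM of Mgat5, which differed between the genotypes in these same libraries, so the values of Mgat5 are a description and carry no test. RNA came from neutrophils sorted out of bone marrow and spleen of BALB/c SKG mice 8 weeks after curdlan, a fungal beta-glucan that sets off arthritis in this strain. SKG mice carry a mutation of the T cell kinase gene Zap70, which both groups share, and the groups were 2 wild-type (WT) and 2 Mif -/- (knockout, KO) libraries. Mif encodes macrophage migration inhibitory factor, a secreted cytokine, and the labels give no animal ages, no proportions of the 2 tissues and no cell type restriction of the deletion. The libraries were made from total RNA with ribosomal RNA removed, so RNA that is not fully spliced can be in them.

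The unit was FPKM, fragments per kilobase of transcript scaled to library size, given per transcript and summed here per gene. The smallest steps between low values put the relative depth at 1.23 and 1 in WT replicates 1 and 2 and at 5.28 and 4.83 in KO replicates 1 and 2, and the run names place the genotypes in different lanes. Genotype, depth and lane cannot be told apart. The labels do not say whether each replicate was its own animal, and the p-values therefore rest on a spread between samples that may be technical. Mif was listed at 0.882 and 2.88 FPKM in WT and at 0 in both KO libraries. All 12 neutrophil markers were listed above 0 in every library, S100a8 highest at 41370 and 38838 FPKM in WT and 35980 and 36080 FPKM in KO. Of these markers 1 passed the limma test described below: Ly6g, the surface antigen of mouse neutrophils, rose from 519 and 491 FPKM in WT to 918 and 936 FPKM in KO (limma, adjusted p = 0.0364). With it, Mmp8, Mmp9, Retnlg and Ngp had an unadjusted p under 0.05 upward, 5 of 12 in all, and 0 had one downward. Of all genes in that test 8.35% had such a p upward and 9.56% downward, and 0.157% passed upward.

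N-glycans are sugar trees attached to asparagine residues of secreted and surface proteins. In the Golgi, MGAT1 adds the N-acetylglucosamine (GlcNAc) that starts complex glycans, the alpha-mannosidases II encoded by Man2a1 and Man2a2 then trim mannose, and MGAT2, the MGAT4 enzymes and MGAT5 each add a further GlcNAc branch. The MGAT5 branch is the one most readily extended with poly-N-acetyllactosamine (poly-LacNAc), which galectins bind. MGAT3 adds a bisecting GlcNAc that hinders further branching, and FUT8 adds the core fucose. On neutrophils such glycans carry the fucosylated and sialylated ligands of selectins.

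Several annotated transcripts of Mgat5 and Man2a2 are shorter than the full coding transcript and hold intron sequence, and the splice sites concerned are shown because the transcript results below turn on them. The sequences are from GENCODE M21 transcripts (GRCm38). In the first 6 lines the lower case is the last 30 bases of an exon, and the capitals are the 30 bases that follow in the named transcript. They are the next exon in Mgat5-201 and Man2a2-201 and the intron in Mgat5-203, Mgat5-204 and Man2a2-204. In the last 2 lines the capitals come first and mark the 30 bases that precede exon 12 of Man2a2, which are exon 11 in Man2a2-201 and intron in Man2a2-202.
Mgat5-201, end of exon 9 (chr1:127387483-127387512, plus strand): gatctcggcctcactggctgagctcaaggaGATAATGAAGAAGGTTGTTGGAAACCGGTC
Mgat5-203, same exon end: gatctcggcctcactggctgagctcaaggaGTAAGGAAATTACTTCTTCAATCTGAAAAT
Mgat5-201, end of exon 11 (chr1:127397611-127397640, plus strand): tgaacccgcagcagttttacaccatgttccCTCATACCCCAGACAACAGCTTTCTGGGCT
Mgat5-204, same exon end: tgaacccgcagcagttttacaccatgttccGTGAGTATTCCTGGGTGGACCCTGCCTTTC
Man2a2-201, end of exon 16 (chr7:80360896-80360925, minus strand): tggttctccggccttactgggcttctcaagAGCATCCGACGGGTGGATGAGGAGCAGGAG
Man2a2-204, same exon end: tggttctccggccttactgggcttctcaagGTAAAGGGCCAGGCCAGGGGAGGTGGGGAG
Man2a2-201, start of exon 12 (chr7:80363307-80363336, minus strand): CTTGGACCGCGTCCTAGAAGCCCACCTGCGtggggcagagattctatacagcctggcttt
Man2a2-202, same exon start: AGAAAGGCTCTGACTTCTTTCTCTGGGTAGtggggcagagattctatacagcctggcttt
In these windows the exon bases are coding in Mgat5-201 (18 exons, 2220 coding bases) and Man2a2-201 (24 exons, 3456 coding bases). Mgat5-203 and Mgat5-204 read 700 and 1152 bases into introns of 3231 and 14486 bases. Man2a2-204 reads 444 bases into the intron after exon 16, and it also retains the whole 986-base intron after exon 2. Man2a2-202 starts 126 bases inside the intron before exon 12 and otherwise has the positions of Man2a2-201 from exon 12 to the end.

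Of the 9 genes, 8 reached a mean of 1 FPKM in either genotype and were tested in a fit over all 10221 such genes (limma on log2(FPKM + 1), a scale that understates changes of low genes). In that fit 0.157% of genes passed upward and 0.186% downward (0.342% in all) at a Benjamini-Hochberg adjusted p under 0.05. Mgat5 was one of those past the threshold, which is how the set was chosen. Of the other 7 tested genes 0 passed (limma), 1 had an unadjusted p under 0.05 upward (Fut8) and 2 had one downward (Mgat4a and Man2a2). Over all genes tested 8.35% had such a p upward and 9.56% downward. The median difference of these 7 genes was 0.10 on the log2 scale, beside 0.02 over all genes tested. Both KO libraries lay above both WT libraries for 4 of the 7 and below them for 2, against 29.6% and 23.1% of all genes.

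**Figure D1:**
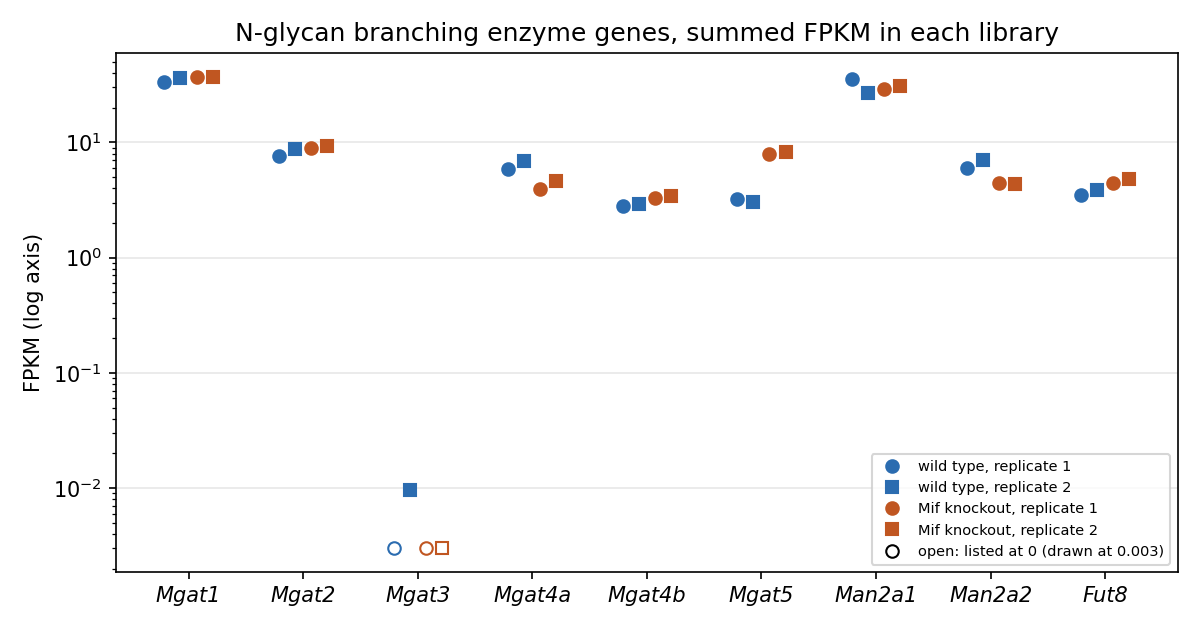
Summed FPKM of the 9 genes in each library on a log axis; circles are replicate 1, squares replicate 2, and open symbols are values listed at 0. Mgat5 stands at 3.06 to 3.22 FPKM in WT and 7.95 to 8.21 FPKM in KO, Mgat4a and Man2a2 lie lower in KO, and Mgat1 and Man2a1 are the most abundant.

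Mgat1, which starts complex N-glycans, and Man2a1, the more abundant alpha-mannosidase II gene, led the set in level. Mgat1 stood at 33.2 and 36.3 FPKM in WT and at 37.1 and 37.2 FPKM in KO. Man2a1 stood at 35.2 and 26.6 FPKM in WT and at 29.3 and 30.9 FPKM in KO. The ranges of the 2 genes overlapped in WT and did not in KO. Next came Mgat2, the enzyme of the branch after Mgat1, at 7.65 and 8.78 FPKM in WT and 8.94 and 9.26 FPKM in KO. Man2a2 and Mgat4a followed in WT, at 5.98 and 7.02 FPKM and at 5.83 and 6.88 FPKM, and their ranges overlapped. Fut8, at 3.53 and 3.87 FPKM, then Mgat5, at 3.22 and 3.06 FPKM, and Mgat4b, at 2.83 and 2.90 FPKM, were the lowest of the tested genes in WT. In KO the order differed in that Mgat5, at 7.95 and 8.21 FPKM, stood directly below Mgat2 and above Fut8, Man2a2, Mgat4a and Mgat4b. The bisecting enzyme gene Mgat3 was listed at 0 in 3 libraries and at 0.00959 FPKM in WT replicate 2, where that value equals 2.00 of the steps estimated for the library. At its length 3 steps correspond to 0.0117 and 0.0144 FPKM in the WT libraries and to 0.00273 and 0.00298 FPKM in the KO libraries, so Mgat3 was not detectable above that floor. The relatives Mgat5b, Mgat4c, Mgat4d and Mgat4e were listed at 0 in all 4 libraries.

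Mgat5 (ENSMUSG00000036155) spans chr1:127205015-127488336 on the plus strand of GRCm38. Its KO mean was 2.57 times its WT mean, a difference of 1.13 ± 0.08 (SE, n = 2 per group) on the log2(FPKM + 1) scale, and both KO libraries lay above both WT libraries. The difference sat in 1 of its 4 transcripts. Mgat5-201, the full coding transcript of 8436 nucleotides, stood at 2.51 and 2.32 FPKM in WT and at 7.51 and 7.71 FPKM in KO, a ratio of means of 3.15. The authors' deposited table gives it a fold of 2.52 with a q-value of 0.161, and Mgat5-201 was not among the 47 transcripts past the threshold in the fit over all transcripts.

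Mgat5-204, which reads into the intron after exon 11, stood at 0.508 and 0.462 FPKM in WT and at 0.274 and 0.299 FPKM in KO, so it lay on the opposite side. Mgat5-203, which reads into the intron after exon 9, stood at 0.186 and 0.220 FPKM in WT and at 0.156 and 0.185 FPKM in KO, with next to no gap between the groups. Mgat5-202, a shorter transcript with the same coding positions as Mgat5-201, was at 0.0502 FPKM or less in every library. The retained-intron pair together made up 21.5% and 22.3% of the gene in WT and 5.41% and 5.89% in KO. Mgat5-201 made up 77.9% and 76.0% in WT and 94.4% and 93.9% in KO.

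**Figure D2:**
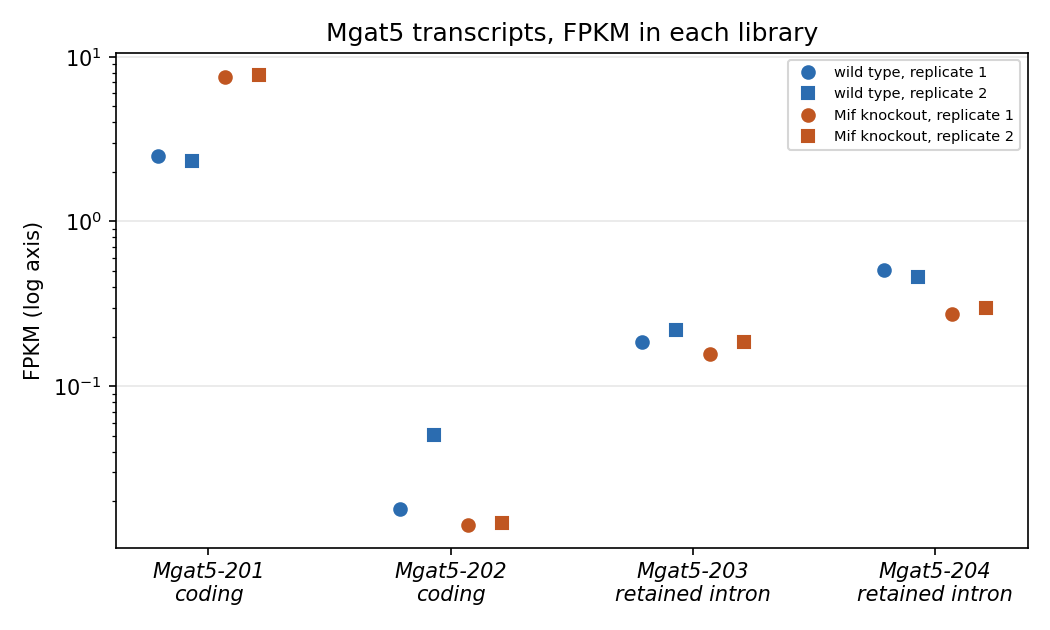
FPKM of the 4 Mgat5 transcripts in each library on a log axis, WT in blue and KO in orange. Only the coding transcript Mgat5-201 is higher in both KO libraries (7.51 and 7.71 FPKM against 2.51 and 2.32), and the other 3 lie at 0.508 FPKM or less in every library.

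No annotated locus inside or across Mgat5 that the table lists was higher in both KO libraries than in both WT libraries. Tmem163, a protein-coding gene of the opposite strand that overlaps the 3′ end of Mgat5, was listed at 0 in all 4 libraries. Gm37510, an unclassified locus of the same strand within the Mgat5 span (chr1:127270524-127275285), stood at 1.15 and 0.814 FPKM in WT and at 0.478 and 0.593 FPKM in KO. The pseudogene Gm8451, on the opposite strand within the span, stood at 1.37 and 1.40 FPKM in WT and at 1.16 and 0.902 FPKM in KO.

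The way FPKM is summed also bears on Mgat5, because fragments divided among transcripts of unequal length count unequally. FPKM times transcript length, summed per gene (in FPKM kb), does not depend on that division and was added after seeing the data. On this scale Mgat5 stood at 23.2 and 21.6 FPKM kb in WT and at 64.5 and 66.4 FPKM kb in KO, a log2 difference of 1.51 ± 0.08. In the smallest FPKM steps, the WT values were 1277 and 967, so the gene was far above the floor in each.

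Man2a2, the less abundant alpha-mannosidase II gene (ENSMUSG00000038886, chr7:80349097-80371375, minus strand), differed between the genotypes in its transcripts more than in its total. Its summed level was 5.98 and 7.02 FPKM in WT and 4.40 and 4.32 FPKM in KO, a difference of -0.48 ± 0.10 (SE, n = 2 per group; limma, adjusted p = 0.139). In FPKM kb, the scale without the division among transcripts, it was 25.2 and 28.6 in WT and 24.5 and 25.2 in KO, a difference of -0.11 ± 0.09 (limma, adjusted p = 0.587). On that scale 0.245% of genes passed. The difference of Man2a2 was thus smaller, in the same direction and with overlapping groups, when each transcript was weighted by its length.

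Within the gene, the coding transcript Man2a2-201 stood at 0.508 and 0.290 FPKM in WT and at 3.21 and 3.54 FPKM in KO. Man2a2-202, the transcript that starts in the intron before exon 12, stood at 2.85 and 3.57 FPKM in WT and at 0.254 and 0.0559 FPKM in KO. Man2a2-204, which starts near the 5′ end and runs into the intron after exon 16, stood at 1.75 and 2.38 FPKM in WT and at 0.347 and 0.306 FPKM in KO. The coding transcript was the minor form in WT and the main form in KO. Log2 differences of Man2a2-201, Man2a2-202 and Man2a2-204 were 1.65 ± 0.15, -1.87 ± 0.17 and -1.20 ± 0.16. Their limma adjusted p were 0.0821, 0.0865 and 0.133 over all 19696 transcripts tested, and none passed. The authors' deposited table gives folds of 3.13, 0.275 and 0.435 for them with q-values of 0.268, 0.295 and 0.335.

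Summed over coding transcripts only, Man2a2 differed by 1.57 ± 0.10 and passed (limma, adjusted p = 0.0264), where 0.183% of genes passed. The direction of Man2a2 therefore turned with the transcripts counted, from lower over all transcripts to higher over the coding ones. Man2a2-202 shares 4484 of its 4610 bases with Man2a2-201 and Man2a2-204 shares 2590 of 4020, so most of the bases of either are also bases of the coding transcript. Retained-intron transcripts made up 87.3% and 93.9% of the gene in WT and 22.0% and 15.5% in KO.

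**Figure D3:**
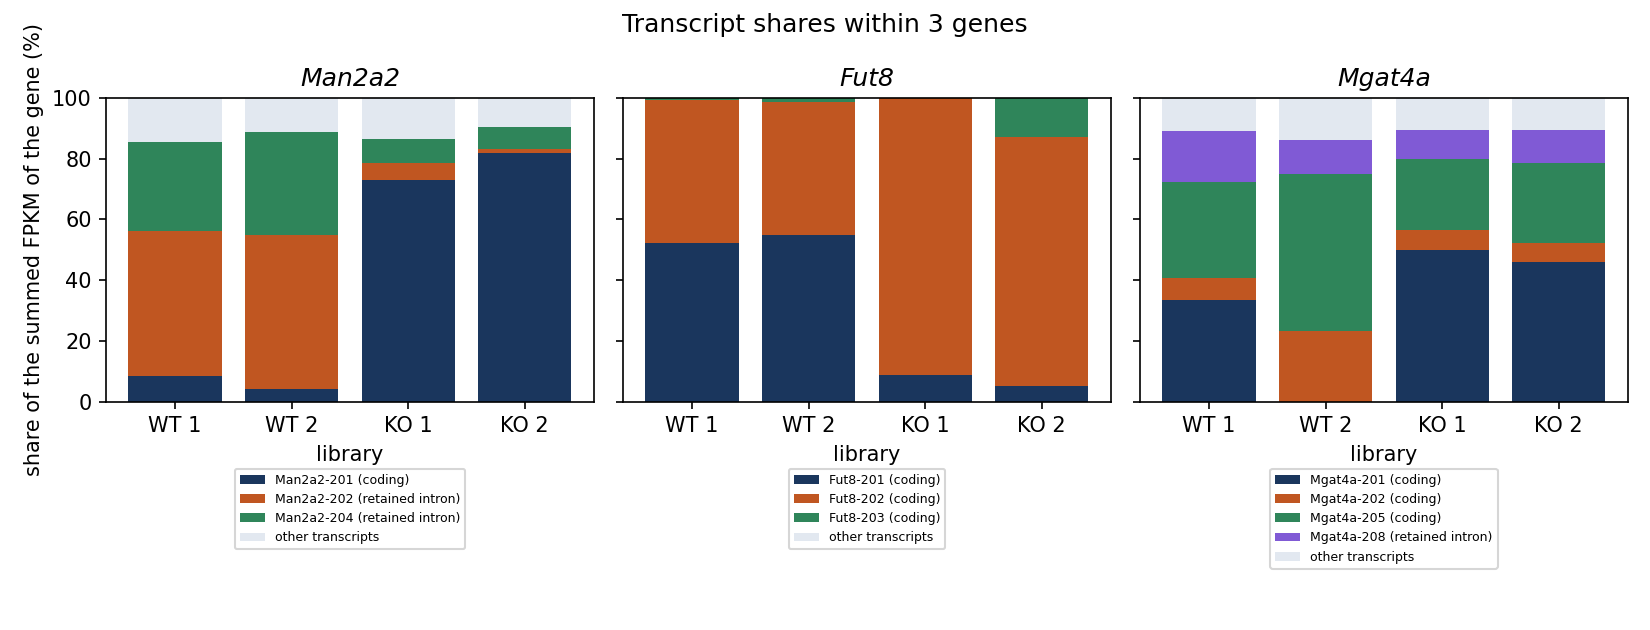
Share of each gene's summed FPKM held by its transcripts, one stacked bar per library, for Man2a2, Fut8 and Mgat4a; transcripts that reach 10% in any library are coloured. Man2a2-201 goes from 8.49% and 4.13% in WT to 72.9% and 82.0% in KO, Fut8-202 from 47.3% and 44.0% to 91.0% and 81.9%, and Mgat4a-201 is absent only from WT replicate 2.

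Transcripts annotated with a retained intron were lower in KO over the whole table as well. The log2 difference was above 0 for 12.9% of the 3400 such transcripts tested (median -0.32) and for 59.4% of the 12458 coding ones (median 0.05). The fall was not particular to retained introns. Of the 1226 tested transcripts annotated as processed transcripts, 17.8% lay above 0 (median -0.30). Of the 813 annotated with nonsense-mediated decay, 54.7% did (median 0.07). The FPKM of all retained-intron transcripts, those of noncoding genes included, equalled 4.47% and 5.55% of the FPKM of protein-coding genes in WT. In KO it equalled 3.76% and 4.06%. Within genes, the retained-intron share was compared for 3975 tested genes. These had such transcripts, a coding transcript and at least 1 FPKM in all 4 libraries. The share was lower in both KO libraries than in both WT libraries for 59.6% of them, with a median change of -2.60 percentage points. Man2a2, at -71.9 points, had the largest fall of the 3975, and Mgat5, at -16.3 points, ranked 82 from the lowest. Mgat4a, Mgat4b and Man2a1 changed by -3.20, -1.11 and -1.33 points. This ranking was made after the values were seen and is a description. For Mgat5 it is not separate from the selection of the set, because the summed FPKM used there is the denominator of the share. The coding transcripts of Mgat5 stood at 2.53 and 2.37 FPKM in WT and at 7.52 and 7.73 FPKM in KO. Its retained-intron transcripts stood at 0.693 and 0.682 FPKM in WT and at 0.430 and 0.483 FPKM in KO. Depth and lane moved with genotype, and their part in these shares was not tested.

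**Figure D4:**
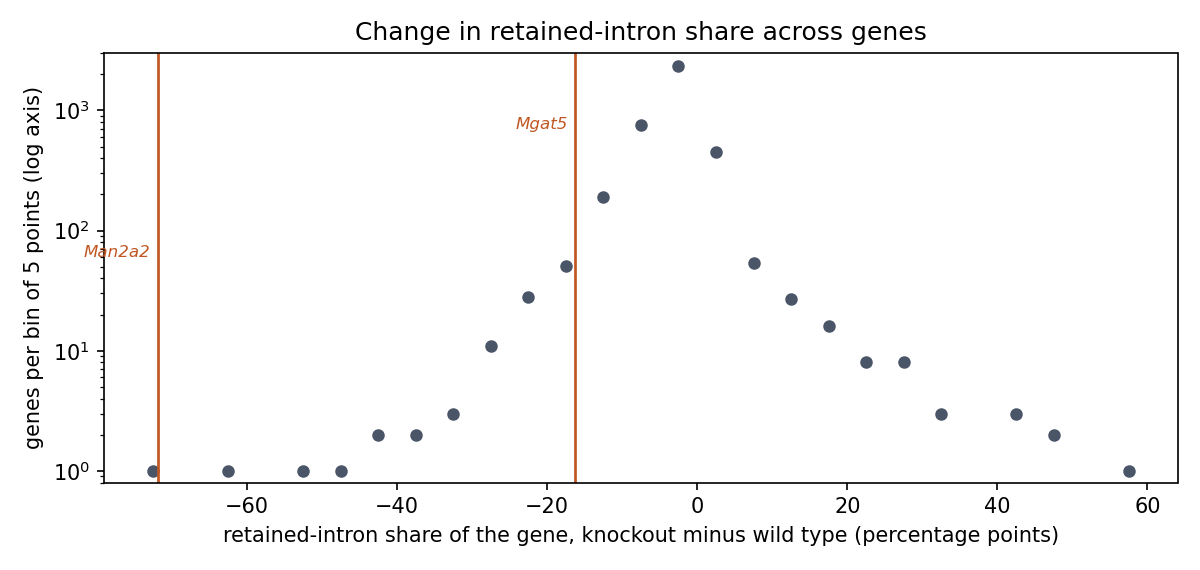
Number of genes (log axis) per 5-point bin of change in retained-intron share, knockout minus wild type, for 3975 genes; vertical lines mark Man2a2 and Mgat5. Most genes lie near the median of -2.60 points, Man2a2 lies at -71.9 and Mgat5 at -16.3.

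Fut8, the core fucosyltransferase gene (ENSMUSG00000021065, chr12:77238125-77476338, plus strand), also differed in transcripts. The gene stood at 3.53 and 3.87 FPKM in WT and at 4.47 and 4.79 FPKM in KO, a difference of 0.26 ± 0.09 (n = 2 per group; limma, adjusted p = 0.238), and the groups did not overlap. Fut8-202 stood at 1.67 and 1.70 FPKM in WT and at 4.07 and 3.92 FPKM in KO (0.90 ± 0.11; limma, adjusted p = 0.117). Fut8-201 stood at 1.84 and 2.12 FPKM in WT and at 0.398 and 0.244 FPKM in KO (-1.17 ± 0.14; limma, adjusted p = 0.117). The 2 transcripts thus held similar levels in WT, and Fut8-202 held most of the gene in KO, but neither passed over all transcripts.

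Fut8-201 and Fut8-202 have the same 1725 coding bases and differ at their ends. Fut8-202 begins at chr12:77238148 and Fut8-201 at chr12:77239065, and 645 of the 3358 bases of Fut8-201 are outside Fut8-202. Another coding transcript, Fut8-203, stood at 0.622 FPKM in KO replicate 2 and at 0.0472 FPKM or less in the other libraries. In FPKM kb the gene differed by 0.18 ± 0.10 (limma, adjusted p = 0.405). Without WT replicate 2 the difference of Fut8 was 0.31, in a setting where only the KO pair gives the spread.

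Mgat4a (ENSMUSG00000026110, chr1:37439340-37541016, minus strand) and Mgat4b (ENSMUSG00000036620, chr11:50210890-50235103, plus strand) encode enzymes of the same branch and stood on opposite sides. Mgat4a was at 5.83 and 6.88 FPKM in WT and at 3.94 and 4.59 FPKM in KO, a difference of -0.48 ± 0.12 (limma, adjusted p = 0.160) with no overlap between the groups. Mgat4b was at 2.83 and 2.90 FPKM in WT and at 3.28 and 3.46 FPKM in KO (0.18 ± 0.08; limma, adjusted p = 0.358), also with no overlap. Neither passed, and the small difference of Mgat4b turned to -0.01 after correction for GC content and length. In FPKM kb, Mgat4a differed by -0.39 ± 0.10 (limma, adjusted p = 0.161). Leaving out WT replicate 1 or 2, where 2604 and 2846 genes passed, gave Mgat4a a difference of -0.58 or -0.38 and Man2a2 one of -0.58 or -0.38, and both then passed.

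In the transcripts of Mgat4a, WT replicate 2 stood apart. Mgat4a-201 was listed at 0 in WT replicate 2 and stood at 1.95 FPKM in WT replicate 1 and at 1.96 and 2.11 FPKM in KO. Mgat4a-205, which has the same coding positions and 7030 of its 7251 bases in common with Mgat4a-201, stood at 1.84 and 3.55 FPKM in WT and at 0.922 and 1.22 FPKM in KO. The 0 in WT replicate 2 stood beside the highest value of Mgat4a-205, and how fragments were divided between this near-identical pair is not given in the table.

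The remaining tested genes had small differences. Mgat1 differed by 0.10 ± 0.08 (limma, adjusted p = 0.567), Mgat2 by 0.13 ± 0.09 (limma, adjusted p = 0.502) and Man2a1 by -0.03 ± 0.15 (limma, adjusted p = 0.942). The main Mgat1 transcript, Mgat1-213, held 60.1% and 56.2% of the gene in WT and 60.2% and 60.2% in KO. Among the minor coding transcripts of Mgat1, Mgat1-203 held 2.98% and 4.12% in WT and 1.34% and 0.692% in KO. Mgat1-201 held 5.50% and 3.804% in WT and 6.72% and 8.53% in KO. Neither passed over all transcripts (limma, adjusted p = 0.219 and 0.231). Mgat2, a single-exon gene with 1 transcript, has no division of fragments to make. Man2a1-201 held at least 97.2% of Man2a1 in each library. Over the 19 tested transcripts of members other than Mgat5, 0 passed (limma, lowest adjusted p 0.0821), 3 had an unadjusted p under 0.05 upward and 5 downward. Over all transcripts tested 0.239% passed, and 6.96% and 12.2% had such a p in the same order.

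None of the other tested genes of the N-glycan pathway passed. Of 115 genes in 9 lists, 85 were tested and 0 passed in either direction (limma, lowest adjusted p 0.170). An unadjusted p under 0.05 was reached by 3 upward and 2 downward, which is below the 17.9% of all genes that reached one. The median difference was 0.02, as over all genes, and 2 genes differed by more than 0.5 on the log2 scale. Positive differences were found for 53 of the 85 (62.4%) and for 54.2% of all genes tested. The counts per list below are to be read beside that share of all genes. Leaving out WT replicate 1 gave 14 passing genes and leaving out WT replicate 2 gave 11, or 16.5% and 12.9% of the pathway against 25.5% and 27.8% of all genes.

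At the start of the pathway, 12 of 19 tested genes of dolichol-linked oligosaccharide assembly had positive differences (median 0.07). Alg13 and Alg2 were the lower ones of least p. Alg13, a subunit of the transferase that adds the second GlcNAc, stood at 2.78 and 2.92 FPKM in WT and at 2.11 and 2.08 FPKM in KO. Alg2, a mannosyltransferase, stood at 3.77 and 3.90 FPKM in WT and at 2.52 and 3.03 FPKM in KO. Dpm3, which anchors dolichol-phosphate mannose synthase, stood at 3.63 and 6.63 FPKM in WT and at 9.91 and 9.49 FPKM in KO, and the WT libraries differed widely. Its difference of 0.85 (limma, adjusted p = 0.191) was 0.49 without WT replicate 1 and 1.21 without WT replicate 2, and it passed in both settings. The oligosaccharyltransferase, which transfers the sugar to protein, had 5 of 11 genes with positive differences (median -0.04). Its subunit genes Tmem258 and Ddost differed by -0.17 and 0.14.

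In the list for trimming and glycoprotein folding in the endoplasmic reticulum, 10 of 13 tested genes had positive differences (median 0.04). Prkcsh, the beta subunit of glucosidase II, stood at 7.49 and 7.08 FPKM in WT and at 9.11 and 9.16 FPKM in KO (0.29 ± 0.08; limma, adjusted p = 0.170). Mogs, glucosidase I, stood at 2.36 and 2.39 FPKM in WT and at 2.76 and 2.97 FPKM in KO. The 2 tested Golgi mannosidase I genes, Man1c1 and Man1a2, differed by 0.13 and 0.02.

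None of the genes that act on the finished branches passed. Of 6 genes for galactose and poly-LacNAc extension, 2 had positive differences (median -0.03). B4galt1, a main galactosyltransferase, stood at 45.3 and 42.0 FPKM in WT and at 43.5 and 46.8 FPKM in KO. B4galt3 stood at 42.5 and 57.8 FPKM in WT and at 44.9 and 48.1 FPKM in KO. Of 7 genes for sialic acid and terminal fucose capping, 2 had positive differences (median -0.05). St3gal6, a sialyltransferase, stood at 24.7 and 41.4 FPKM in WT and at 18.4 and 24.3 FPKM in KO, with WT replicate 2 the highest. Its difference of -0.57 (limma, adjusted p = 0.353) lay below the 5th percentile of all genes and was -0.94 without WT replicate 1, where it passed, and -0.21 without WT replicate 2. St8sia4, a polysialyltransferase, stood at 18.1 and 24.04 FPKM in WT and at 13.8 and 16.8 FPKM in KO, and WT replicate 2 was again the highest. Its difference of -0.43 (limma, adjusted p = 0.280) was -0.62 without WT replicate 1, where it passed, and -0.24 without WT replicate 2.

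Genes that supply nucleotide sugars and carry them into the Golgi had 16 positive differences of 22 (median 0.04), a count that became 12 with median-of-ratios scaling. Uap1l1, a relative of the enzyme that forms UDP-GlcNAc, the donor of every MGAT reaction, stood at 4.55 and 5.82 FPKM in WT and at 6.39 and 6.19 FPKM in KO. Nans, sialic acid synthase, stood at 2.61 and 2.23 FPKM in WT and at 2.96 and 2.96 FPKM in KO. Pmm1, a phosphomannomutase, stood at 0.859 and 1.19 FPKM in WT and at 0.627 and 0.594 FPKM in KO. In the mannose 6-phosphate list, whose enzymes mark glycans of lysosomal proteins, 4 of 5 genes had positive differences (median 0.08). Nagpa, the uncovering enzyme of that tag, stood at 2.33 and 2.60 FPKM in WT and at 3.45 and 3.09 FPKM in KO. Gnptab, a subunit of the transferase, differed by 0.14.

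**Figure D5:**
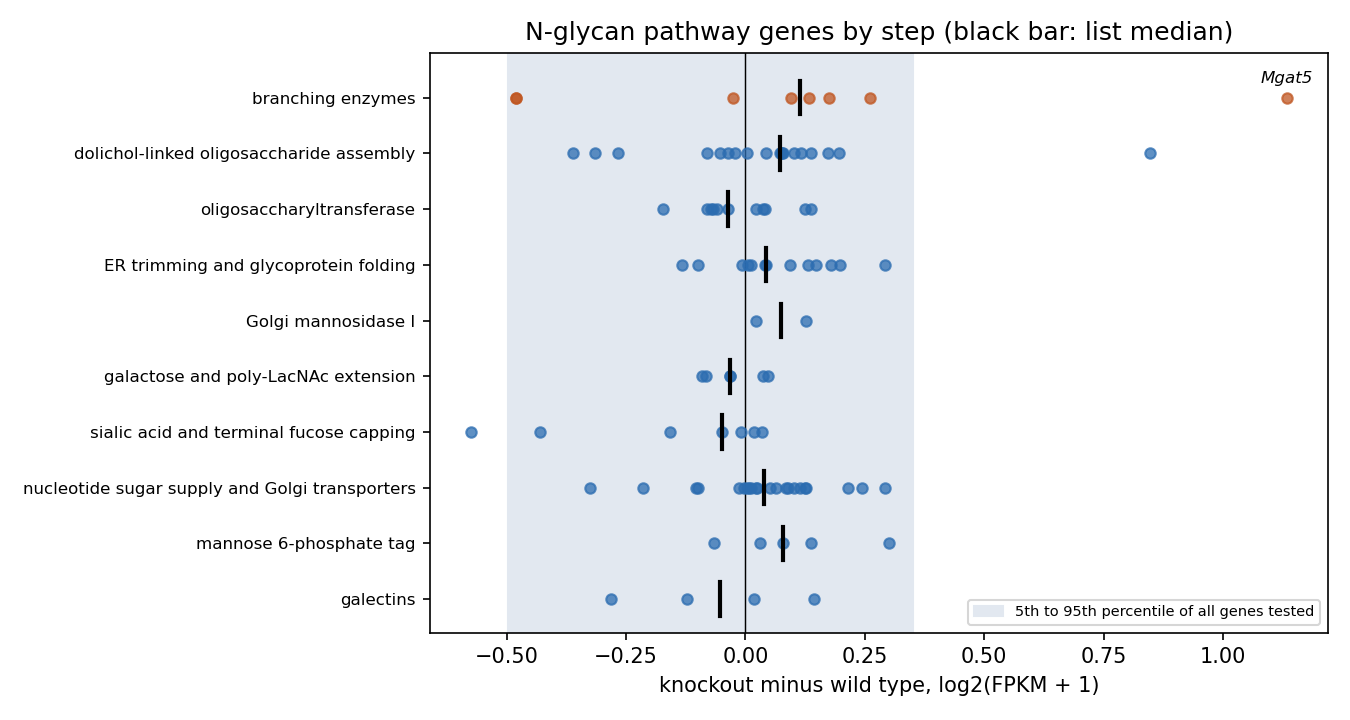
Log2 difference, knockout minus wild type on log2(FPKM + 1), of each tested gene by step of the pathway, with list medians as black bars and the grey band from the 5th to the 95th percentile of all 10221 genes tested (-0.50 to 0.35). Mgat5 stands at 1.13, and the medians of the other lists lie between -0.05 and 0.08.

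Markers of other cells moved between some libraries beside these results. The 10 B cell and plasma cell markers summed to 239 and 202 FPKM in WT and to 77.3 and 85.2 FPKM in KO, nearly all from Igkc and Ighm, immunoglobulin genes, and Xbp1, which neutrophils also express. Of the 4 tested markers 3 passed downward, Igkc, Ighm and Jchain (limma, adjusted p = 0.0226, 0.0423 and 0.0261), beside 0.186% of all genes. Xbp1, the other tested marker, did not fall with them, at 43.4 and 43.4 FPKM in WT and 41.7 and 43.8 FPKM in KO (limma, adjusted p = 0.895). Igkc stood at 103 and 88.7 FPKM in WT and at 17.3 and 20.4 FPKM in KO. Jchain, the joining chain of secreted antibodies, stood at 10.6 and 9.43 FPKM in WT and at 1.86 and 2.29 FPKM in KO. Ms4a1, a B cell surface marker, was listed at 0 in 2 libraries. The 10 erythroid markers summed to 5.07 and 20.8 FPKM in WT and to 17.2 and 16.8 FPKM in KO, with WT replicate 1 lowest. The 10 monocyte and macrophage markers summed to 47.5 and 64.2 FPKM in WT and to 54.3 and 61.0 FPKM in KO. The 8 T and natural killer cell markers summed to at most 0.688 FPKM, with Trac at 0 in every library. The 8 progenitor markers summed to 7.71 and 8.09 FPKM in WT and to 15.7 and 14.9 FPKM in KO. The gap came mostly from the granule protease gene Prtn3, at 3.56 and 3.92 FPKM in WT and 10.8 and 9.49 FPKM in KO. Of the 2 tested, Prtn3 passed upward (limma, adjusted p = 0.0365), beside 0.157% of all genes, and Prss57 did not. Other granule protein genes were too low to be tested. Mpo stood at 0.869 and 0.661 FPKM in WT and at 0.672 and 0.714 FPKM in KO. Elane stood at 0.0815 and 0.839 FPKM in WT and at 0.646 and 0.490 FPKM in KO. Ctsg stood at 0.0547 and 0 FPKM in WT and at 0.138 FPKM in both KO libraries. Fewer cells of a type and less RNA per cell cannot be told apart here, and the part of these markers in the Mgat5 values was not tested.

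The genes whose values over the 4 libraries lay closest to those of Mgat5 were Raet1e, Cabin1, Elovl7, Gm20490 and Prtn3, in that order. Raet1e, Cabin1 and Prtn3 lie on chromosome 10, as does Mif, while Elovl7 lies on chromosome 13 and Gm20490 on chromosome 2. Whether position relative to the deleted gene bears on their values was not tested. Closeness was the Euclidean distance between centred log2(FPKM + 1) values, which was 0.06 for Raet1e, a ligand gene of the receptor NKG2D, 0.10 for Cabin1, a calcineurin inhibitor gene, and 0.21 for Prtn3. Elovl7, a fatty acid elongase gene, stood at 0.262 and 0.202 FPKM in WT and at 1.45 and 1.57 FPKM in KO. With 4 libraries in 2 groups, such a list mainly holds genes with a like difference between the genotypes.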

How the data were processed

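The authors deposited 1 table with FPKM values per transcript and a column per library, per the file headers. The same table holds the authors' fold (ratio), p-value and q-value, per the file headers; only folds and q-values named as theirs are printed. The submitters' processing notes name the build GRCm38 and, without saying what each did, StringTie 2.1.4, HISAT2 2.1.0, R 3.6.1 and SAMtools 1.9. The kit keeps strand, per the labels' protocols; the annotation release and the use of strand in quantification were not given in the sources used here. Overlapping and antisense genes may therefore share reads, and a transcript listed at 0 can be a failed estimate.

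FPKM was summed per gene identifier and compared as log2(FPKM + 1) with limma 3.58.1 in R 4.3.3 (trended empirical Bayes, no covariates, 2 against 2 libraries), for genes or transcripts whose WT or KO mean reached 1 FPKM, with Benjamini-Hochberg adjustment over all tested. The fit was tested on simulated data. GENCODE M21 gave positions, types, lengths and sequences and held 114332 of the 115220 transcripts. The files give no counts, so depth is only relative, from the lowest steps of FPKM times length in single-exon genes, and no counting interval is given.

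Members and lists were chosen with earlier results of these data known. Named genes were the members, the MGAT relatives, per pathway list any gene past the threshold and the 2 of lowest p (3 in lists over 15 genes), and the 5 genes closest to Mgat5. Genes within 1 Mb of Mgat5 and transcripts holding at least 5% of a member were described too.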

Additional observations from a re-analysis of the deposited data

How the results depend on the processing

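The count of genes past the limma threshold, 35, became 17 with correction for GC content and length and 0 when a replicate block was added to it (1792 genes with an unadjusted p under 0.05), 9 with at least 1 FPKM required in all 4 libraries, 16 with median-of-ratios scaling, 14 with protein-coding genes rescaled to a common total, 13 among protein-coding genes only, 21 with quantile normalization and 0 with no filter on low values (3032 genes then had an unadjusted p under 0.05). The split of higher against lower calls, 16 to 19, became 17 to 8 in FPKM kb, 11 to 6 with the GC and length correction and 12 to 1 among protein-coding genes. The replicate block alone gave 34 genes, and leaving out 1 library gave from 0 (without KO replicate 1 or 2, with 481 and 621 genes at an unadjusted p under 0.05) to 2846. The 47 transcripts past the threshold became 5 with at least 1 FPKM in all 4 libraries, 1 with no filter, 71 with quantile normalization and 1 with the replicate block, and from 0 to 1 without 1 library (1317 to 5651 at an unadjusted p under 0.05). Of the members, 1 passed (Mgat5). The set was selected on the difference of Mgat5. Whether Mgat5 passes in the settings below, and its part in the comparisons of named genes, is therefore a description and not a test. That became 0 with no filter and with the GC and length correction joined to the replicate block, 2 over coding transcripts only (Man2a2 with 1.57 being the other) and from 0 to 4 without 1 library. Mgat5 itself lay between 1.10 and 1.34 on the log2 scale in all settings except FPKM kb (1.51). Differences near 0 changed sign: Mgat4b to -0.0132 with the GC and length correction, with or without the replicate block, and Man1a2 to -0.0082 with protein-coding genes rescaled. Without 1 library, Man2a1 ranged from -0.22 to 0.17, Man1a2 from -0.096 to 0.14, B4galt1 from -0.0064 to 0.10 and B4galt3 from -0.31 to 0.13. Of 455 comparisons of 28 named genes with an alternative, 419 kept direction and side of the threshold, 21 came to pass, 4 no longer passed and 11 changed sign. The cause of these changes was not tested. Same-numbered WT and KO libraries did not deviate together (r = 0.0065 across genes), so the numbers were not taken as pairs. Depth is unknown in absolute terms.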

Other observations

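Galectins, which bind the branches that MGAT5 starts, ranged from 0 (Lgals12 in all 4 libraries) to 501 FPKM (Lgals3 in KO replicate 1). Lgals3 stood at 421 and 440 FPKM in WT and at 501 and 451 FPKM in KO (0.14 ± 0.08; limma, adjusted p = 0.424). Lgals9 stood at 76.6 and 71.3 FPKM in WT and at 73.0 and 76.6 FPKM in KO. Lgals8 stood at 15.4 and 18.2 FPKM in WT and at 14.9 and 15.7 FPKM in KO. Lgals4 had the largest difference of the 4 tested, -0.28 (limma, adjusted p = 0.582), at 4.61 and 8.08 FPKM in WT and 4.52 and 5.25 FPKM in KO. Lgals1 was at 0.816 FPKM or less in WT and 0.817 FPKM or less in KO and was not tested. Of 4 tested galectin genes 2 had positive differences, 0 passed over all genes, and 0 had an unadjusted p under 0.05.

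Of the 33 genes within 1 Mb of Mgat5, 9 were tested and 0 passed (limma). The helicase subunit gene Mcm6 was the one with an unadjusted p under 0.05, at 3.01 and 3.30 FPKM in WT and at 3.95 and 5.17 FPKM in KO (0.41 ± 0.13; limma, adjusted p = 0.222). Ccnt2, a cyclin of the elongation factor P-TEFb, stood at 9.53 and 10.8 FPKM in WT and at 8.36 and 9.12 FPKM in KO. The GTPase regulator gene Rab3gap1 stood at 8.91 and 7.05 FPKM in WT and at 8.06 and 8.07 FPKM in KO.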
